A study of Mus musculus with 4 samples.

Results

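The genes described here bring long-chain fatty acids into the cell, carry them through the cytosol and join them to coenzyme A. Of 10 genes listed for these steps (Fabp3, Fabp4, Fabp5, Cd36, Slc27a1, Slc27a4, Acsl1, Acsl3, Acsl4 and Acsl5), 9 had at least 1 array probe whose annotated gene symbol was one of these names, among 17734 genes with a named probe. Fabp3 was not analysed here. Cd36 and Acsl3 had 2 probes each, so 11 of 26423 probes were members, and all 11 were fitted. The cells were 3T3-L1, a mouse preadipocyte line that becomes fat-storing when induced, and for 48 hours they were given an inducing mixture of insulin at 1 µg/ml, dexamethasone at 1 µM and isobutylmethylxanthine at 0.5 mM. In 2 samples 13.47 µM berberine, a plant alkaloid, was present as well (berberine). The other 2 samples are titled control, which is read here as the induction mixture without berberine (control). The treatment text is the same for all samples, so the groups rest on the titles. All samples are a single cell line, every group carries the 3 inducing agents, and no sample without them was analysed here. The labels do not say that the samples of a group came from separate cultures, so the p-values cover the spread from array to array alone, and that spread may be technical.

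Fatty acids cross the plasma membrane with the help of CD36, a scavenger receptor, and of the fatty acid transport proteins of the SLC27 family, which also have acyl-CoA synthetase activity. Inside the cell, fatty acid binding proteins (FABPs) keep them soluble, and long-chain acyl-CoA synthetases (ACSLs) turn them into acyl-CoA, the form used for triglyceride assembly, membrane lipids and oxidation. Cd36, Fabp4 and Acsl1 are known as genes that come on in differentiating adipocytes and as targets of the nuclear receptor PPARγ.

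As deposited, the median intensity was 237 and 280 for the berberine arrays and 423 and 350 for the control arrays, so the values were quantile-normalized between arrays, and levels below are log2 of the normalized intensity. Changes are berberine minus control on that scale, tested with limma over 26408 probes at an adjusted p of 0.05. The median change of all probes was 0.17, and it was -0.048 with no further normalization, 0.52 with arrays centred on their median, 0.26 with scaling to the 75th percentile and -0.010 with cyclic loess, so the direction of a small change rests on the scaling. The 25th percentile of the normalized values, a log2 intensity of 6.57, served as a floor, and all 11 member probes lay above it on every array. Of the preadipocyte or fibroblast markers, 9 of 9 measured lay above the floor in both groups, and in control so did 13 of 13 markers of mature adipocytes.

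The genes of this pathway did not move as a block. Of the 11 probes, 5 were lower with berberine, 2 were higher and 4 did not pass. Over all probes 17.7% were lower, 27.1% higher and 44.8% either of these by the same rule. In the deposited values 4 member probes were lower and 1 higher, beside 4291 and 2396 of all probes, and after median centring 4 were lower and 3 higher, beside 3311 and 10694. The probes that fell by at least 2-fold belong to Cd36, Acsl1, Fabp4 and Fabp5, 4 of 11 probes against 11.1% of all probes. Falls of at least 8-fold were measured at a Cd36 probe and at Acsl1, and at 2.92% of all probes. The median change of the member probes was -0.45. The arrays of the groups did not overlap at 9 of the 11 probes, and at 74.8% of all probes. They were apart with berberine lower at 6 of the 11, and at 28.2% of all probes. RNA of whole cultures was measured, so fewer differentiated cells and less RNA in each such cell cannot be told apart here.

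**Figure D1:**
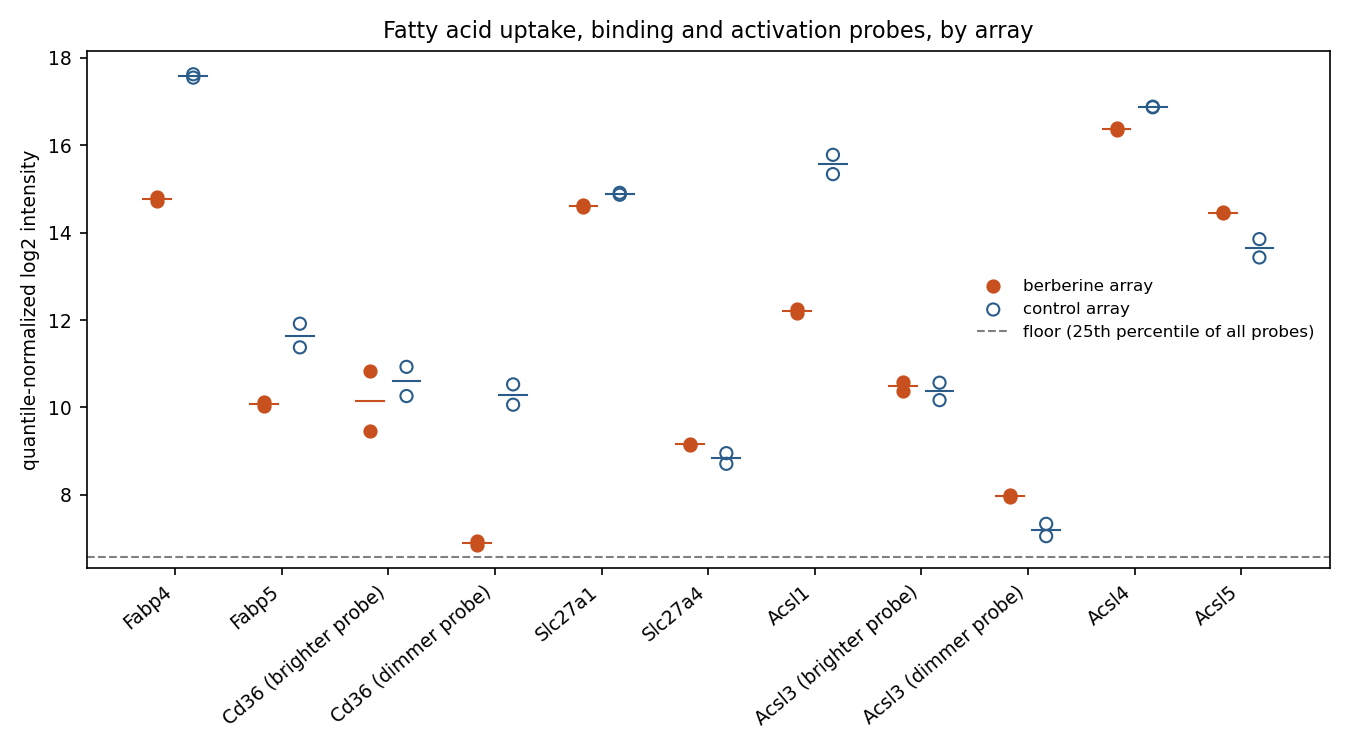
Quantile-normalized log2 intensity (vertical axis) of the 11 member probes, with berberine arrays as filled points left of control arrays as open points, the mean of each group as a line and the floor as a dashed line. Fabp4, Fabp5, Acsl1 and the dimmer Cd36 probe sit well below their control points with berberine, while the brighter Cd36 probe is spread widely among the berberine arrays.

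Most mature adipocyte markers moved with these falls. Of 13 such markers, 10 were lower, 2 were higher and 1 did not pass, beside 18.2% lower and 30.0% higher of all genes. The 2 higher ones were Lipe (2.02-fold, limma adjusted p = 0.00418) and Slc2a4 (1.49-fold, adjusted p = 0.0156). As deposited, the groups overlapped for Slc2a4. Lep, among the lower ones, was close to the floor in control (7.16 and 6.87) and below it with berberine. The median change of the 13 markers was -3.82, against 0.20 over all genes. Their summed normalized intensity was 23870 and 23470 on the berberine arrays and 560600 and 543200 on the control arrays. The preadipocyte or fibroblast markers split, with a median change of 0.039. Of 9 measured, 3 were lower (Dlk1, Pdgfra and Col3a1), 4 were higher (Col1a1, Pdgfrb, Cd34 and Col1a2) and 2 did not pass. Macrophages and endothelial cells also use Cd36, Fabp4 and Fabp5. Of 8 macrophage markers 2 were lower and 2 higher, 6 lay above the floor in both groups, and Adgre1 and Fcgr1 lay below it in both. Their summed intensity was 4926 and 4743 with berberine and 12030 and 10930 in control, most of it from Cd14. Without Cd14 the other 7 summed, after normalization, to 2435 and 2276 with berberine and 1583 and 1888 in control. As deposited, their sum was not higher on either berberine array than on the control arrays, so no direction is settled for these 7. Of 7 endothelial markers 4 were higher and 0 lower (limma, 0 lower also at an unadjusted p of 0.05), beside the same shares of all genes. Their summed normalized intensities were 2226 and 2067 with berberine and 1326 and 1503 in control, and the gap was much smaller in the deposited values. Of 3 muscle markers measured, in a list chosen because muscle uses Fabp3, 1 was higher and 2 did not pass. Their normalized sums were 1101 and 1032 in berberine and 663.8 and 688.5 in control, but as deposited the sums of the groups overlapped. All samples are a single cell line, and the floor is a percentile of all normalized values. A marker above the floor is thus not shown to be expressed, nor its cell type to be present. The part of these markers in the changes of the fatty acid genes was not tested.

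Cd36, the membrane receptor for long-chain fatty acids, gave different answers at its 2 probes. The dimmer probe (PH_mM_0013960) read 92 and 124 in deposited intensity on the berberine arrays and 1462 and 1522 on the control arrays. Its normalized log2 intensity was 6.86 and 6.95 with berberine and 10.06 and 10.53 in control. Both berberine arrays lay far below both control arrays, and just above the floor. The probe fell 10.5-fold (log2 change -3.39, SE 0.19, adjusted p = 0.000358, 95% interval 7.42-fold to 14.8-fold). The brighter probe (PH_mM_0001401) read 539 and 1668 with berberine and 1682 and 1927 in control, or 9.46 and 10.82 against 10.26 and 10.93 on the normalized log2 scale. Here the berberine arrays differed by 1.36 from each other, the second of them lay between the control arrays after normalization, and the change of -0.45 did not pass (SE 0.50, adjusted p = 0.503, 95% interval -1.74 to 0.84). Without berberine replicate 1 that change was 0.23, and without berberine replicate 2 it was -1.13.

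The log2 difference of brighter minus dimmer Cd36 probe on the same array was 2.60 and 3.88 with berberine and 0.20 and 0.40 in control. The difference was small on both control arrays and large on both berberine arrays, by 2.94 more than in control after normalization and by 2.88 in the deposited values (exact permutation p = 0.333 two-sided, the smallest that 2 against 2 arrays can give). This difference was looked at after the values were seen. The array annotation gives no position of either probe within the gene, so which transcripts each reads is not known, and the size of a Cd36 change from these arrays rests on the probe chosen.

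Promoter sequence is shown for Cd36, called at its dimmer probe alone, and for Acsl1. These are the members with at least a 2-fold call for which a reference window was available. Each window runs from 250 bases before to 50 bases after an annotated start (RefSeq, GRCm38.p6), 5′ to 3′ on the gene's strand. Capitals mark every match, on either strand, to AGGTCA (the core hexamer of nuclear receptor sites), CCAAT (bound by NF-Y) or GGGCGG (bound by SP1-type factors). The Cd36 window is chr5:17835847-17836146, minus strand, and the Acsl1 windows are chr8:46470787-46471086 and chr8:46490716-46491015, plus strand.
Cd36: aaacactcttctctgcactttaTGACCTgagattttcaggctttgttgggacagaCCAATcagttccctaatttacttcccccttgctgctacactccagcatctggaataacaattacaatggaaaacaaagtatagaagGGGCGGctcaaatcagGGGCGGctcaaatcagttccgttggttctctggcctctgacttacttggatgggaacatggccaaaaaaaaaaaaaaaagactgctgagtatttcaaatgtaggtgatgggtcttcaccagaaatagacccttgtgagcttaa
Acsl1, first start: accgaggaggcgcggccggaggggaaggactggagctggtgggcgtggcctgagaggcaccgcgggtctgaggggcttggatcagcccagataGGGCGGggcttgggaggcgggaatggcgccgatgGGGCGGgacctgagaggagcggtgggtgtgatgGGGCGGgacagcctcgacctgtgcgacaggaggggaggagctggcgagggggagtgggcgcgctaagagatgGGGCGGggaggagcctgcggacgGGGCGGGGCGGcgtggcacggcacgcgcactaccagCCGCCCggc
Acsl1, second start: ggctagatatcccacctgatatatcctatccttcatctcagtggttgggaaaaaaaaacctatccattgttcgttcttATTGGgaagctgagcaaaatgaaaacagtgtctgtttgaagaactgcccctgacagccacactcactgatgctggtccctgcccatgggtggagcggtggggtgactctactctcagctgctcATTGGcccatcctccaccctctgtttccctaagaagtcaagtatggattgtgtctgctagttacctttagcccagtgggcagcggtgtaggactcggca

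The 3 windows differ in make-up. The Cd36 window holds 1 AGGTCA on the opposite strand, 228 bases before the start, 1 CCAAT, 195 bases before it, and 2 GGGCGG matches, 109 and 93 bases before it. The first Acsl1 window is rich in G and C and holds 7 GGGCGG matches, some of them sharing letters, while the second holds 2 CCAAT matches, both on the opposite strand. Of all 32851 windows of this length, 16.3% hold AGGTCA, 37.4% CCAAT and 35.7% GGGCGG on either strand. The member genes with windows, Fabp3 included, have 11 of them, and 1, 6 and 7 of these hold the 3 motifs in that order. The full direct repeat AGGTCANAGGTCA, a form of the PPAR site that contains the hexamer at both ends, and TTGCGCAA, a C/EBP palindrome, were in 0 of the 11 windows and in 0.0396% and 0.183% of all windows. These are matches of letters in short windows and no measure of binding.

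The fatty acid transport proteins Slc27a1 (FATP1) and Slc27a4 (FATP4) did not pass. Slc27a1, the transport protein known from fat and muscle, read 26150 and 27904 in deposited intensity with berberine and 32829 and 24393 in control, and its normalized log2 intensity was 14.63 and 14.59 against 14.91 and 14.87. The groups overlapped in the deposited values and lay apart by a little after normalization. Its change was -0.28 (SE 0.12, adjusted p = 0.118, 95% interval -0.59 to 0.03), but it was 0.50 after median centring (adjusted p = 0.0452) and -0.50 after cyclic loess (adjusted p = 0.0259), so it was called in opposite directions under these scalings. Slc27a4 read 426 and 490 with berberine and 691 and 464 in control, with normalized values of 9.14 and 9.16 against 8.95 and 8.71. Its change of 0.32 did not pass (SE 0.14, adjusted p = 0.124, 95% interval -0.04 to 0.69) and was -0.31 in the deposited values. The within-array log ratio of Slc27a1 to Slc27a4 changed by -0.60 after quantile normalization and by 0.24 in the deposited values (exact permutation p = 0.333), so these arrays gave no settled direction for either transporter or for the pair.

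Both fatty acid binding proteins fell, Fabp4 more than Fabp5. Fabp4 (also aP2), the abundant binding protein of adipocytes, read 27630 and 32738 with berberine and 210527 and 196642 in control. On the normalized log2 scale it was 14.72 and 14.82 with berberine, against 17.55 and 17.63 in control. The groups lay far apart and the arrays of each group close together. The fall was 7.06-fold, with a 95% interval of 5.66-fold to 8.82-fold (log2 change -2.82, SE 0.12, adjusted p = 0.000193). With berberine the probe still lay more than 8 log2 units above the floor.

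Fabp5, the epidermal-type binding protein that fat cells and macrophages also make, read 808 and 982 with berberine and 3354 and 3439 in control. Its normalized log2 intensity was 10.02 and 10.12 with berberine and 11.37 and 11.92 in control. Both berberine arrays lay below both control arrays, and the fall was 2.97-fold, with a 95% interval of 2.03-fold to 4.35-fold (log2 change -1.57, SE 0.21, adjusted p = 0.00428). Without berberine replicate 1 or 2 the change was as large, -1.52 and -1.62, but did not pass (adjusted p = 0.0642 and 0.0562). In these fits 1 berberine array is left, and the control arrays alone give the spread.

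The within-array log ratio of Fabp4 to Fabp5 was 4.70 and 4.69 with berberine and 6.18 and 5.71 in control. It was thus lower by 1.25 in the berberine arrays, and by 0.83 in the deposited values, where scaling an array by a constant cannot move it (exact permutation p = 0.333, with both berberine arrays below both control arrays). Adipoq, the adipocyte hormone gene used as a check of the fat cell state, was at 10.52 and 10.57 with berberine and 17.56 and 17.47 in control, so that it fell 125-fold (log2 change -6.97, SE 0.12, adjusted p = 5.77e-05). The change of Fabp4 was smaller than that of Adipoq by 4.15 on the log2 scale, and by 4.49 in the deposited values (exact permutation p = 0.333), a comparison chosen after the values were seen. Both genes mark the adipocyte, and they fell by very different amounts at these probes. In control the deposited intensities were 210527 and 196642 for Fabp4 and 212190 and 174622 for Adipoq. Whether readings this high are saturated was not tested, so the size of both falls and of their gap is uncertain.

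**Figure D2:**
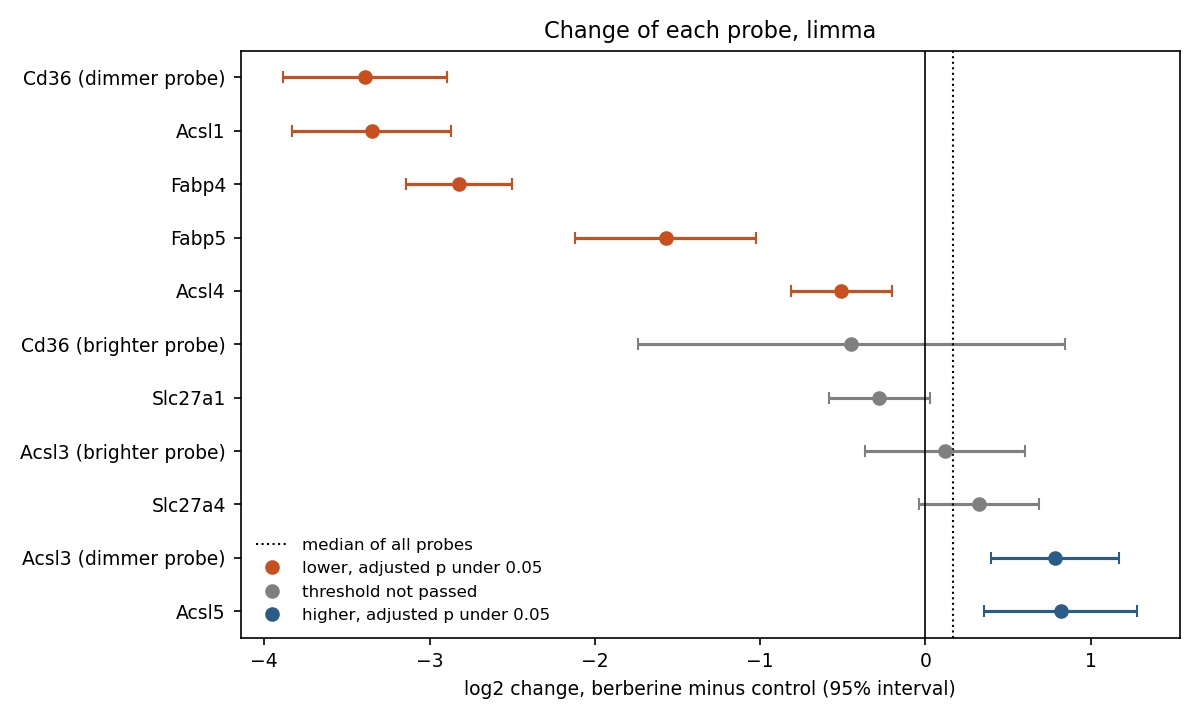
Change of each member probe (horizontal axis, log2, berberine minus control) with its 95% interval from limma, ordered from the largest fall at the top, with the median of all probes as a dotted line. The 4 probes at the top, the dimmer Cd36 probe, Acsl1, Fabp4 and Fabp5, have intervals wholly below -1, and Acsl5 and the dimmer Acsl3 probe have intervals wholly above 0.

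The acyl-CoA synthetases moved in different directions. Acsl1, the main long-chain synthetase of fat tissue, read 4342 and 5143 in deposited intensity with berberine and 58765 and 34503 in control. Its normalized log2 intensity was 12.17 and 12.25 with berberine and 15.78 and 15.34 in control. The groups lay far apart, and the fall was 10.2-fold, with a 95% interval of 7.32-fold to 14.2-fold (log2 change -3.35, SE 0.19, adjusted p = 0.00034). Of all probes, 2.32% had a change as low or lower.

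Acsl4, which prefers arachidonic acid, fell slightly, and its call depended on the scaling. It read 87046 and 92738 with berberine and 130295 and 112570 in control, or 16.39 and 16.35 against 16.87 and 16.88 on the normalized log2 scale. The groups did not overlap, and the fall was 1.42-fold (log2 change -0.51, SE 0.12, adjusted p = 0.0227). This call was lost in the deposited values (adjusted p = 0.241) and on the 75th percentile (adjusted p = 0.646), and after median centring the change was 0.13. With 1 berberine array left, the change stayed at -0.53 and -0.49 and did not pass (adjusted p = 0.131 and 0.139).

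Acsl5, a synthetase of mitochondria and the endoplasmic reticulum, was higher with berberine. It read 23445 and 25358 with berberine and 15860 and 9315 in control, and its normalized log2 intensity was 14.47 and 14.45 against 13.85 and 13.43. Both berberine arrays lay above both control arrays, which differed between themselves by 0.42. The rise was 1.76-fold, with a 95% interval of 1.28-fold to 2.43-fold (log2 change 0.82, SE 0.18, adjusted p = 0.0189), and under the other scalings the change was 0.61 to 1.57. Without berberine replicate 1 or 2 the change stayed at 0.81 and 0.82 and did not pass (adjusted p = 0.133 and 0.123), again with 1 array in that group.

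Acsl3, a synthetase of the endoplasmic reticulum and of forming lipid droplets, differed between its probes. The brighter probe (PH_mM_0014508) read 1046 and 1388 with berberine and 2037 and 1219 in control, or 10.37 and 10.59 against 10.56 and 10.17 on the normalized log2 scale, and the groups overlapped. Its change of 0.12 did not pass (SE 0.19, adjusted p = 0.646, 95% interval -0.37 to 0.60) and was -0.39 in the deposited values. The dimmer probe (PH_mM_0003356), close to the floor in control, read 187 and 232 with berberine and 161 and 171 in control, or 7.94 and 8.004 against 7.05 and 7.33. It was 1.72-fold higher after normalization (log2 change 0.78, SE 0.15, adjusted p = 0.0126). That call was lost in the deposited values (log2 change 0.33, adjusted p = 0.386) and on the 75th percentile (adjusted p = 0.0915). With 1 berberine array left, the change stayed at 0.81 and 0.75 and did not pass (adjusted p = 0.0979 and 0.105).

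Set against each other on the same array, the synthetases shifted apart. The log ratio of Acsl1 to Acsl4 was -4.21 and -4.10 with berberine and -1.09 and -1.54 in control, a difference of -2.84, and of -2.82 in the deposited values (exact permutation p = 0.333). The log ratio of Acsl1 to Acsl5, a pair chosen after the values were seen, was -2.29 and -2.21 with berberine and 1.93 and 1.91 in control. That is a shift of -4.17, and of -4.26 in the deposited values (exact permutation p = 0.333). The arrays of the groups did not overlap for these pairs, and with cyclic loess the shifts were -2.69 and -4.24. Scaling an array by a constant cannot move them. The log ratio of Acsl3 to Acsl4 differed by 0.63 after quantile normalization and by 0.044 in the deposited values, where the groups overlapped. In all, 8 differences within arrays were computed, each with an exact permutation p of 0.333 after quantile normalization, and adjustment over the 8 leaves that value.

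In the order of the changes, the intervals of the dimmer Cd36 probe and Acsl1 overlapped, as did those of Acsl1 and Fabp4, so these 3 are not ranked here. Overlap of intervals is no test of a difference between probes, and no within-array difference was computed for these pairs. The intervals of Fabp4 and Fabp5 did not overlap, and neither did those of Fabp5 and Acsl4. From Acsl4 on to Acsl5 every neighbouring pair overlapped.

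**Figure D3:**
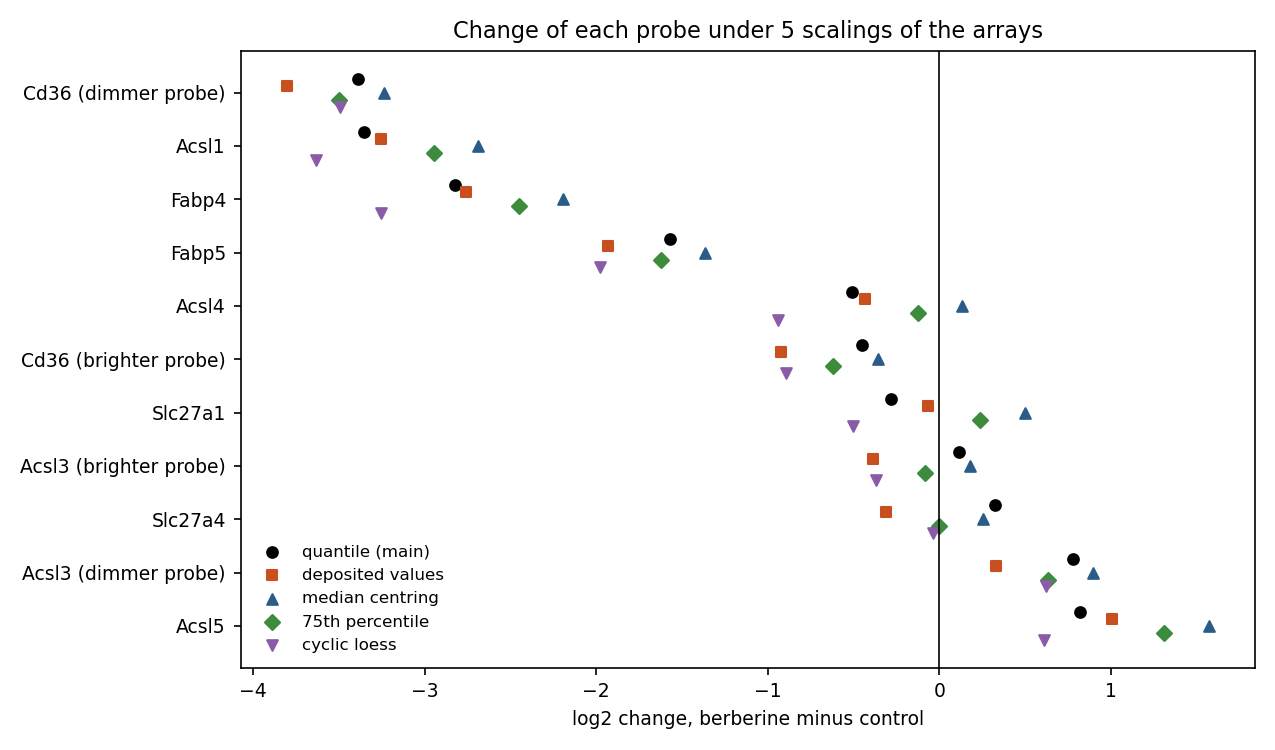
Change of each member probe (horizontal axis, log2, berberine minus control) under 5 scalings of the arrays, each with its own marker: quantile normalization, none beyond the deposited values, median centring, the 75th percentile and cyclic loess. Acsl1, Fabp4, Fabp5 and the dimmer Cd36 probe are below -1 under all 5 scalings, Acsl5 and the dimmer Acsl3 probe are above 0 under all 5, and Slc27a1, Slc27a4, Acsl4 and the brighter Acsl3 probe fall on both sides of 0.

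The wider families and their partner proteins moved both ways. Of 48 further genes listed for fatty acid and acyl-CoA handling, 47 had a probe. At the brightest probe of each gene 6 were lower with berberine, 14 were higher and 27 did not pass, against 18.2% lower and 30.0% higher of all 17734 genes. Both shares are near the background. Their median change was 0.15, against 0.20 over all genes, and 8 of the 47 lay below the floor in both groups, 1 of them among the higher ones.

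Among the genes that cleave or bind acyl-CoA, Acot8, a peroxisomal thioesterase, was at 9.07 and 8.98 on the normalized log2 scale with berberine and 12.35 and 12.28 in control, a 9.79-fold fall (adjusted p = 0.000137). Other thioesterases went the opposite way. Them4 was at 10.02 and 9.96 with berberine and 8.38 and 8.17 in control, a 3.28-fold rise (adjusted p = 0.0009). Acot13, a small thioesterase of mitochondria, was at 14.26 and 14.39 with berberine and 13.60 and 13.58 in control, a 1.67-fold rise (adjusted p = 0.00855). With 1 berberine array left, its change was 0.80 and 0.67, beside 0.74 with both, and did not pass (adjusted p = 0.0681 and 0.0851). In all, 4 of the 7 measured thioesterases rose and 1 fell, beside the 30.0% higher and 18.2% lower of all genes. The 4 include Acot1 and Acot2, close copies whose probes may read both, and a dimmer probe of Acot7, which is not in these counts, fell (log2 change -0.999, adjusted p = 0.00401). Dbi, the main acyl-CoA binding protein, was at 15.48 and 15.62 with berberine and 16.48 and 16.18 in control at its brighter probe (log2 change -0.78, adjusted p = 0.0152). That call was lost in the deposited values (adjusted p = 0.174), after median centring (adjusted p = 0.896), and on the 75th percentile (adjusted p = 0.284). With 1 berberine array left the change was -0.71 and -0.85 and did not pass (adjusted p = 0.127 and 0.0899), and the dimmer probe changed by -0.066 (adjusted p = 0.704). Of the 5 other acyl-CoA binding proteins, Acbd3 (log2 change 0.93, adjusted p = 0.0162) and Acbd5 (log2 change 0.65, adjusted p = 0.0431) rose and 3 did not pass at their brightest probe. Over all genes 30.0% were higher and 18.2% lower. A dimmer Acbd6 probe fell (log2 change -1.08, adjusted p = 0.0147).

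Of 14 other synthetases 3 rose and 2 fell, beside the 30.0% higher and 18.2% lower of all genes. A dimmer probe of Acsm2, which is not in these counts, rose (log2 change 0.48, adjusted p = 0.0290). Of 4 other transport proteins 2 rose and 0 fell (limma, 0 lower also at an unadjusted p of 0.05), beside the same shares. Acsbg1, a very-long-chain synthetase of the bubblegum family, was at 11.47 and 11.31 with berberine and 8.59 and 8.41 in control, a 7.42-fold rise (adjusted p = 0.000243). Acsf2, a medium-chain synthetase, was at 12.20 and 12.03 with berberine and 9.87 and 10.09 in control, a 4.40-fold rise (adjusted p = 0.000599). Slc27a2 (FATP2), a transporter with very-long-chain synthetase activity best known from liver and kidney, was at 12.86 and 12.98 with berberine and 11.38 and 11.13 in control, a 3.18-fold rise (adjusted p = 0.0012). Of 6 other FABPs 1 fell and 5 did not pass, beside 18.2% lower and 30.0% higher of all genes. In both groups 3 of the 6 lay below the floor.

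Of 7 partners of uptake 1 fell, 1 rose and 5 did not pass, beside 18.2% lower and 30.0% higher of all genes. Lmf1, a maturation factor that lipases need in the endoplasmic reticulum, was at 9.45 and 9.50 with berberine and 12.17 and 12.21 in control, a 6.56-fold fall (adjusted p = 0.000193). Zdhhc5, a palmitoyltransferase that acts on CD36, was at 10.60 and 10.47 with berberine and 8.93 and 8.49 in control, a 3.54-fold rise (adjusted p = 0.0019). Got2, a mitochondrial aminotransferase also described at the plasma membrane as a fatty acid binding protein, was at 13.04 and 13.08 with berberine and 12.88 and 13.27 in control (log2 change -0.016, SE 0.17, adjusted p = 0.947), and at 0.67 after median centring (adjusted p = 0.0254). Cav1, the caveolar coat protein that helps to hold CD36 at the membrane, read 44 and 74 in deposited intensity with berberine and 46 and 47 in control. Lpl, the lipase that frees fatty acids for uptake, read 53 and 84 with berberine and 49 and 77 in control. Pparg, which encodes PPARγ, read 37 and 64 with berberine and 29 and 29 in control. The probes of these last 3 genes lay below the floor in berberine and control alike, and no fold is given for them. Each of the 3 had 1 probe, so little RNA of the gene and a probe that reads it poorly cannot be told apart. Of the other PPAR genes, Ppard was at 12.75 and 13.01 with berberine and 11.35 and 11.44 in control, a 2.80-fold rise (adjusted p = 0.00168). Ppara did not pass at its brighter probe (log2 change -0.10, adjusted p = 0.534), and its dimmer probe lay below the floor in both groups.

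**Figure D4:**
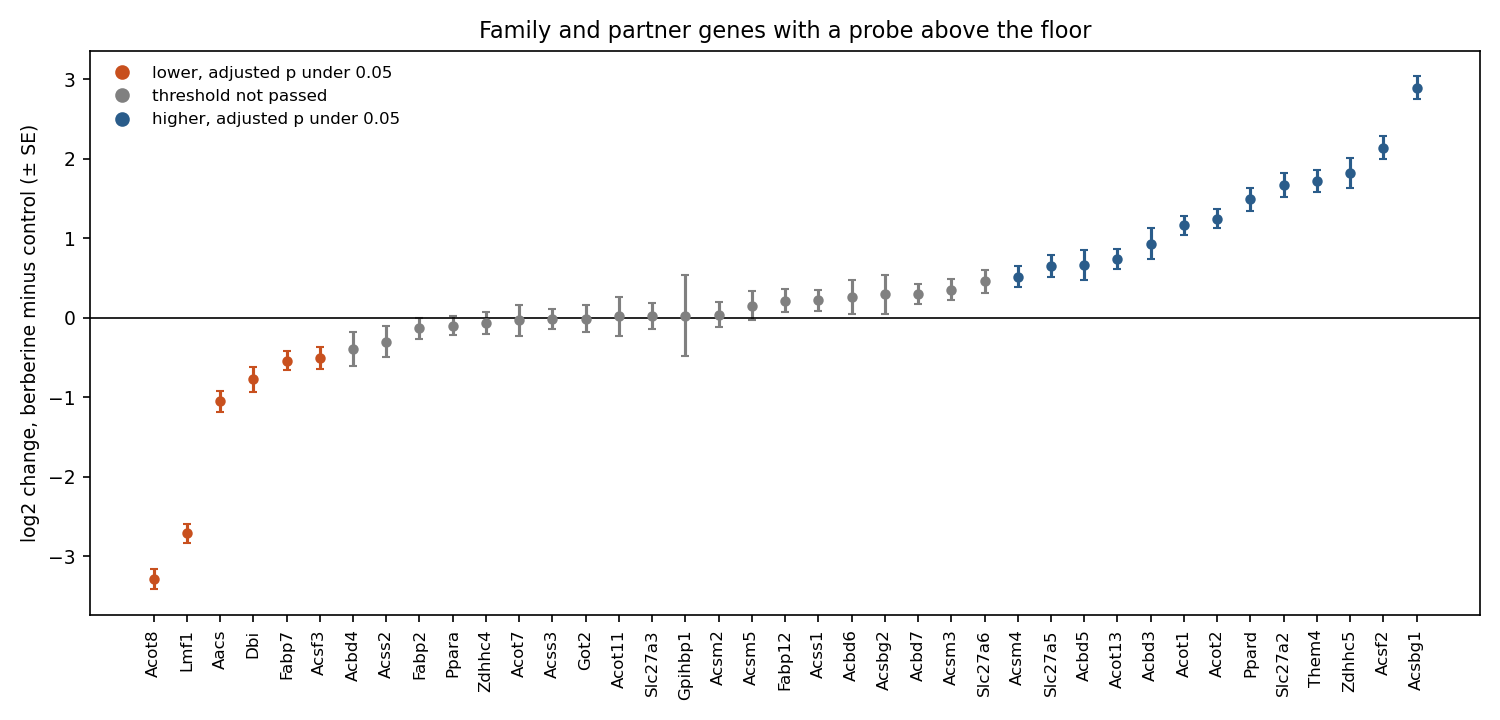
Change (vertical axis, log2, berberine minus control, ± SE from limma) at the brightest probe of each of the 39 family and partner genes that lay above the floor in at least 1 group, ordered from fall to rise. Acot8 and Lmf1 stand at the low end, Acsbg1 and Acsf2 at the high end, and 20 of the 39 did not pass.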

How the data were processed

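Per the labels' protocols, Cy5-labelled RNA of each of the 4 samples was read on an array of its own in 1 colour. The values deposited by the authors are linear probe intensities in whole numbers; their zero point and scale are unknown, since the sources used here give neither scanner, background correction nor scaling. Groups came from the titles, because the treatment text is the same for all samples. Of 26423 probes, 20377 had 1 symbol in the platform annotation, 0 had several and 6046 were unnamed; 18213 symbols were current in RefSeq, 2126 were matched as older names and 38 were kept.

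The 15 probes at or under an intensity of 0 on any array were left out, and log2 values were quantile-normalized and fitted with limma 3.58.1 in R 4.3.3 (lmFit, eBayes, 2 residual and 2.89 prior degrees of freedom), with Benjamini-Hochberg adjustment over all 26408 probes, two-sided. A gene of several probes is counted at its brightest, except the members, whose probes are all given. No batch is named. The number of arrays limits the precision. The code was tested on simulated data with known changes. Members, lists, pairs and the floor were chosen with earlier results of these data known. Genes named beyond the members were the 6 with the smallest p among called family and partner genes above the floor, and Dbi, Got2, Cav1, Lpl, Pparg, Acot13 and Adipoq. Other marker, family and partner genes are named outside that rule, after their values were seen.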

Additional observations from a re-analysis of the deposited data

How the results depend on the processing

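The falls of Acsl1, Fabp4 and the dimmer Cd36 probe kept their direction and passed under all 12 alternatives each (log2 changes -3.63 to -2.69, -3.26 to -2.19 and -3.80 to -3.16). The 5 lower and 2 higher member probes became 3 to 5 and 0 to 2 when each array was left out in turn; at an unadjusted p of 0.05, 2 were higher without either berberine array, where the control arrays alone give the spread. Higher probes numbered 1 in the deposited values and on the 75th percentile, 1 at 1 probe a gene, and 0 with a 2-fold change added (also 0 unadjusted, limma). The 6 lower family and partner genes became 3 after median centring, on the 75th percentile and with a 2-fold change added, and 2 to 7 with an array left out. The 14 higher ones became 9 in the deposited values, 8 with a 2-fold change added, and 8 to 13 with an array left out. Signs turned for Slc27a1 (0.50 centred, 0.24 on the 75th percentile), Slc27a4 (-0.31 deposited, -0.0031 on the 75th percentile, -0.034 cyclic loess), the brighter Acsl3 probe (-0.39, -0.081 and -0.37 in the same order; -0.083 to 0.32 with an array left out), Acsl4 (0.13 centred), the brighter Cd36 probe (-1.13 to 0.23 with an array left out) and Got2 (0.10 deposited, 0.67 centred, 0.41 on the 75th percentile; -0.21 to 0.18 with an array left out). The ratio of Slc27a1 to Slc27a4 was 0.24 in the deposited values, centred or on the 75th percentile. The causes were not tested. Over all probes the 4674 lower and 7164 higher became 4291 and 2396 in the deposited values, 3311 and 10694 centred, 6089 and 4386 with cyclic loess, 2472 and 1867 without berberine replicate 1 and 2590 and 2031 without replicate 2. With a replicate block on the numbers of the titles, 5 member probes were lower and 2 higher, as without it. After normalization, deviations of same-numbered arrays correlated at 0.0035 across probes. That shows no shared deviation of probes, but it cannot show whether the arrays were cultured or handled in pairs.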
